A study of Mus musculus with 36 samples.

Results

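The genes described here were on in naive CD4+ T cells and close to silent in the conventional T cells (Tconv) that grew out of them in an allogeneic bone marrow graft. Levels are given as CPM, the estimated count of a gene divided by the total of its library and brought to the usual common scale, so that levels can be compared between libraries. A gene was a member when its mean was 3 CPM or more over the 6 wild-type (WT) naive libraries and 0.3 CPM or less over the 6 WT Tconv libraries grafted without regulatory T cells (Treg). T-cell receptor and immunoglobulin gene segments and Slc15a2 were left out. The rule found 36 members among the 56748 genes of the table, or 0.351% of the 10272 genes at 3 CPM or more in WT naive cells. Of the 36, 30 carried a gene symbol, 5 were predicted or unnamed and 1 was a RIKEN clone, and 30 were annotated as protein-coding and 5 as long non-coding RNA. Members were thus chosen by WT naive and WT Tconv levels, so these levels are given as a description, and tests were made only on knockout (KO) cells and on WT cells grafted with Treg.

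Poly(A) RNA from spleen CD4 T cells of the mouse was sequenced in 2 lines, labelled HP1a and HP1g after the heterochromatin protein whose gene was inactivated, each with WT and KO cells in 3 conditions: Naive, Tconv, and Tconv transferred with Treg. Each of the 12 groups held 3 libraries. Replicate 3 of the Tconv with Treg of the HP1g KO was dropped, following the quality criteria of the methods, which leaves n = 2 there and 35 libraries in use. In the HP1a line a loxP-flanked allele had been excised through a CMV-cre transgene, so that every cell of the animal and not only its T cells lacked HP1a, and WT cells came from littermates with intact alleles. In the HP1g line the conditional allele was deleted by Cd4-cre, which acts in the T lineage from the thymus on, and its WT littermates carried the conditional alleles without the transgene. Both lines carried a mixture of the 129/Sv and C57BL/6 backgrounds. Naive cells were taken from untransplanted mice of each genotype. Grafted cells came from lethally irradiated hosts, either C57BL/6 J mice or B6 mice that carry CD45.1, given bone marrow of C57BL/6 J and B6D2F1 mice with naive cells of the genotype named, and allospecific Tconv were sorted weeks later as TCR Vb6 positive cells that lacked the Thy1.1 mark of the co-injected Treg. Naive and grafted libraries therefore differ in activation, transfer, host, receptor usage, sorting and sample series, and the parts of these in any difference cannot be told apart. The labels do not say whether replicates were separate animals, so a p-value measures the spread between these samples only.

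Naive CD4 T cells circulate through lymphoid organs at rest and hold a programme of homing receptors, quiescence factors and, in the youngest cells, remnants of thymic gene expression. After antigen recognition this programme is switched off as cells divide and take on effector functions. HP1 proteins bind the methylated histone H3K9 of heterochromatin and take part in keeping genes silent. Treg restrain conventional T cells, and the study asked how cells without HP1a or HP1g respond to them.

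Library totals ran from 37029519 to 63042245 counts with a median of 46844690, so that 3 counts, the floor used here, came to 0.0476 to 0.081 CPM. Floors cover counting error only. Each value after ± is an SD between libraries. Each SE was derived from the log2 fold change and the F value of the edgeR test, which includes the spread between libraries. Cbx5, which encodes HP1a, had means of 11.3, 15.2 and 18.8 CPM in HP1a KO naive cells, Tconv and Tconv with Treg, against 23.8, 27.5 and 49.3 CPM in WT. Cbx3, which encodes HP1g, had means of 69.9, 68.4 and 60.8 CPM in HP1g KO cells against 131, 89.8 and 86.2 CPM in WT. Both targeted genes were thus lower in KO cells but not absent from the counts. The 5 defining T-cell genes summed to between 3988 and 7528 CPM in every library in use. Markers of monocytes and macrophages (22 genes) summed to at most 15.3 CPM in naive libraries and to 212 to 1547 CPM in grafted ones, and neutrophil markers (15 genes) to at most 3.46 CPM and 6.44 to 689 CPM. In HP1a WT Tconv these sums came mainly from few genes: Ccr2 and Cx3cr1 had means of 849 and 40.5 CPM and Mmp9 133 CPM. There S100a9 had 0.0331 CPM and Csf1r 1.82 CPM. In HP1a KO Tconv, S100a9 had a mean of 9.23 CPM and Csf1r 27 CPM. Other grafted groups held more of these markers. A mean of 1 CPM or more was reached by 1 neutrophil marker in HP1a WT Tconv, 11 in HP1g WT Tconv and 13 in HP1a KO Tconv with Treg. For monocyte and macrophage markers the counts were 9, 18 and 20. The part of such cells in the members' values was not tested. B-cell markers (26 genes) summed to 71.2 to 88.0 CPM in naive and 20.9 to 66.3 CPM in Tconv libraries, and their part in the result was not tested. Replicate 2 of the HP1g WT naive cells stood apart, with 14010 CPM over 43 naive T-cell markers against 16727 to 19503 CPM in the other naive libraries. Without it the rule gave 37 members, of which 35 were shared. In bulk RNA, fewer cells that express a gene and less RNA per cell cannot be told apart.

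In naive cells of the KO mice, which the rule did not use, all 36 members had a mean above 1 CPM in both lines. Their CPM summed to 259 ± 32.1 (SD, n = 3) in HP1a KO and 204 ± 7.91 (SD, n = 3) in HP1g KO naive cells. Adh1, an alcohol dehydrogenase that oxidises ethanol and retinol, stood at 22.6, 29.9 and 30.6 CPM in the 3 HP1a KO naive libraries and at 21.3, 20.8 and 18.4 CPM in the HP1g KO ones. The long non-coding RNA A530021J07Rik was nearly level with it, at 23.4, 22.8 and 24.6 CPM and at 17.8, 14.7 and 17.7 CPM. Ampd1, an AMP deaminase of purine metabolism, and Xkrx, a membrane protein of the XK family, followed, with 17.2, 17.7 and 21.7 CPM and 16.8, 27.2 and 27.9 CPM in HP1a KO naive cells. Dntt, which encodes the terminal transferase that adds untemplated nucleotides to receptor gene junctions in the thymus, stood at 11.4, 19.9 and 14.1 CPM and at 10.9, 11.9 and 11.3 CPM. Per kilobase of exon, the same genes led in KO naive cells, with 7.26 CPM for Adh1, 6.56 for A530021J07Rik, 5.77 for Dntt, 5.08 for Xkrx and 4.30 for Ampd1. The lowest per kilobase were Macrod2 and Auts2, at 0.139 and 0.141 CPM. The next members by mean CPM over both KO lines were Pid1 (8.61), Tspan9 (8.25), Tmem108 (8.15), Bend5 (6.83), Pakap (6.64), Zdhhc14 (5.83), Epb41l1 (5.70), Itga5 (5.55), Zfp2 (5.22) and Ldhd (4.79). Pakap encodes an anchor for protein kinase A, Epb41l1 a band 4.1-like scaffold under the membrane, Itga5 the alpha chain of the fibronectin receptor and Zfp2 a zinc-finger protein.

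The members include several genes better known from other tissues. By role, 9 were enzymes, 8 were surface or secreted proteins, 8 were scaffolds, adaptors or chaperones, 5 were nuclear or RNA-binding proteins and 6 were long non-coding or predicted genes. Boll encodes a germ-cell RNA-binding protein and Spaca1 a membrane protein of the sperm acrosome, and both were at or above 2.16 CPM in every naive library. The secreted factors Wnt5b, a Wnt ligand, and Btc, betacellulin, a ligand of the EGF receptor, were among the lower members, with means of 3.59 and 4.59 CPM in HP1a KO naive cells. No naive T-cell marker of the 43 listed was a member, and of 12 thymic emigrant markers only Dntt was.

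Members were spread over the genome. Of the 35 with coordinates in GENCODE vM39 (GRCm39), 4 each lay on chromosomes 1 and 4, and Tspan6 and Xkrx lay 0.251 Mb apart on chromosome X. The libraries did not mark strand, so reads of overlapping genes cannot be assigned with certainty. Exons of Gm32391 overlap those of Atp1b1 on the other strand, a naive T-cell marker that itself had 183 CPM in WT naive and 1.23 CPM in WT Tconv libraries. The nearest ends of the unnamed gene ENSMUSG00000120287 and of Tcf7, which had 1845 and 561 CPM, lie 0.031 kb apart. The Pakap entry that is a member shares exons with a second gene of the same symbol at 7.17 CPM in WT naive and 1.0 CPM in WT Tconv libraries, and its values are uncertain. Exons of Ldhd, Boll, Wnt5b and Glt8d2 overlap the genes Znrf1, Mars2, Fbxl14 and Tdg on the opposite strand, all of which stayed at 16.4 CPM or more in WT Tconv. Gm4258 was not found in the annotation used here.

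The promoters of the members held fewer CpG dinucleotides, relative to expectation, than those of all genes on in naive cells. In the 250 bases before the annotated start, the ratio of observed to expected CpG had a median of 0.431 over 35 members. Over all 10248 genes at 3 CPM or more in WT naive cells, the members included, the median was 0.684. The ratio reached 0.6 in 13 members (37.1%), against 61.2% of all these genes. Among protein-coding genes alone the shares were 43.3% of 30 and 64.1% of 9387. The sets were not matched on level and no test was made. Promoters of 4 members are printed here from GRCm39, 5′ to 3′ on the gene's strand with CpG dinucleotides in capitals, to show this range: Dntt and A530021J07Rik are CpG-poor members that ranked near the top in naive cells, Zcchc12 is a CpG-poor member detected again beside Treg, and Auts2 is a CpG-rich one. They hold 2, 4, 3 and 32 CpG. Dntt lies at chr19:41017464-41017713 (+ strand), A530021J07Rik at chr7:82710741-82710990 (+), Zcchc12 at chrX:35459121-35459370 (+) and Auts2 at chr5:132572184-132572433 (-).
Dntt: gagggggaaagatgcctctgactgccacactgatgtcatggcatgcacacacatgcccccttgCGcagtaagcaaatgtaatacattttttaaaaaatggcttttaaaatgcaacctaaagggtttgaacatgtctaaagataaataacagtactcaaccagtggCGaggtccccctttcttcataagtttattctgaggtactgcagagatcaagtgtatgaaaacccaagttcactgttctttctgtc
A530021J07Rik: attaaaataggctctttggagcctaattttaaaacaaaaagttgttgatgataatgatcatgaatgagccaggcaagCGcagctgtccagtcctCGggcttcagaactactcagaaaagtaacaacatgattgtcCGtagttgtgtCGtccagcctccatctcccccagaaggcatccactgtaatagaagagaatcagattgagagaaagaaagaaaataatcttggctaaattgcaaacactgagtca
Zcchc12: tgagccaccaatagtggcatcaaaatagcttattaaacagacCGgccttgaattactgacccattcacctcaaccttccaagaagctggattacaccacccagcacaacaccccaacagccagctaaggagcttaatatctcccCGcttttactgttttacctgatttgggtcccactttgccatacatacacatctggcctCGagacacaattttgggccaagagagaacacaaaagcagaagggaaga
Auts2: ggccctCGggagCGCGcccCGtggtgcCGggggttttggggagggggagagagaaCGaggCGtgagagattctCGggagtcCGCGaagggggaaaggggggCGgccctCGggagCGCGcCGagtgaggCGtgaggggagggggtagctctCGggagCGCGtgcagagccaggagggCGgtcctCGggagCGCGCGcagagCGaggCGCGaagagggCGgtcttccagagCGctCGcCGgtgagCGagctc

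**Figure D1:**
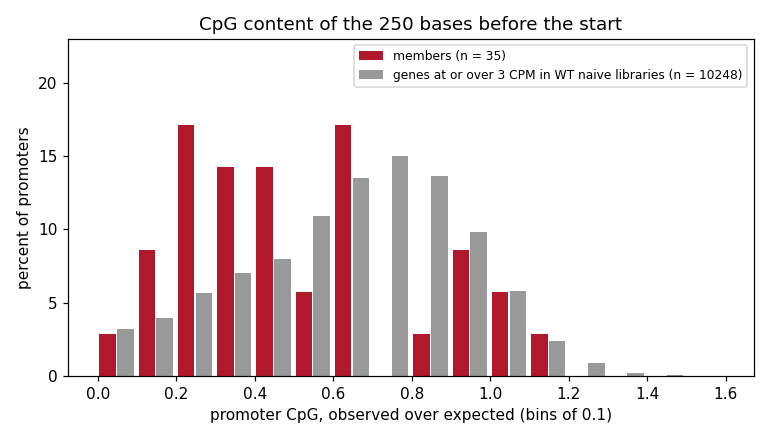
Share of promoters (percent, y axis) in each bin of 0.1 of the observed over expected CpG ratio (x axis), for 35 members (red) and 10248 genes at 3 CPM or more in WT naive libraries (grey). The members' median is 0.431 and that of the grey set, which includes the members, 0.684.

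Short motifs were counted on both strands of the same windows. CTTTGA, the core bound by TCF and LEF factors, was in 3 members (8.57%), against 11.8% of naive-expressed genes and 15.5% of all 56015 genes. CACCC, a core of KLF sites, was in 26 members (74.3%), against 54.3% and 44.7%. CCGGAA, an ETS core, was in 2 members (5.71%), against 19.8% and 7.58%. None of the 3 motifs contains another, and a match is only a description of the letters.

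Grafted KO cells kept these genes near silence. Without Treg, the members' CPM summed to 11.3 ± 4.80 (SD, n = 3) in HP1a KO Tconv and 8.73 ± 1.81 (SD, n = 3) in HP1g KO Tconv, and 22 and 24 members had a mean of 0.3 CPM or less. For description, WT Tconv summed to 6.47 ± 1.55 and 5.93 ± 1.82 (SD, n = 3 each), with 31 of 36 members at 0.3 CPM or less in each line, a level the rule had set. In edgeR fits of the whole table, with a call at an adjusted p under 0.05 and a change above 1 on the log2 scale, 35 of 36 members were lower in HP1a KO Tconv than in HP1a KO naive cells, where 7.24% of all genes tested were called lower. In HP1g KO cells 36 of 36 were lower, where 7.3% of genes were (15.7% were higher). All members passed the filter on low counts in these fits, but through their naive level, so the counts are no independent support for the list. The median change of the members was -4.47 and -4.50 on the log2 scale, beside -0.01 and 0.02 over all genes tested. Tconv and naive libraries did not overlap for 35 of 36 members in the HP1a KO, beside 29.1% of genes lower without overlap, and for 36 of 36 in the HP1g KO, beside 24.7%.

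**Figure D2:**
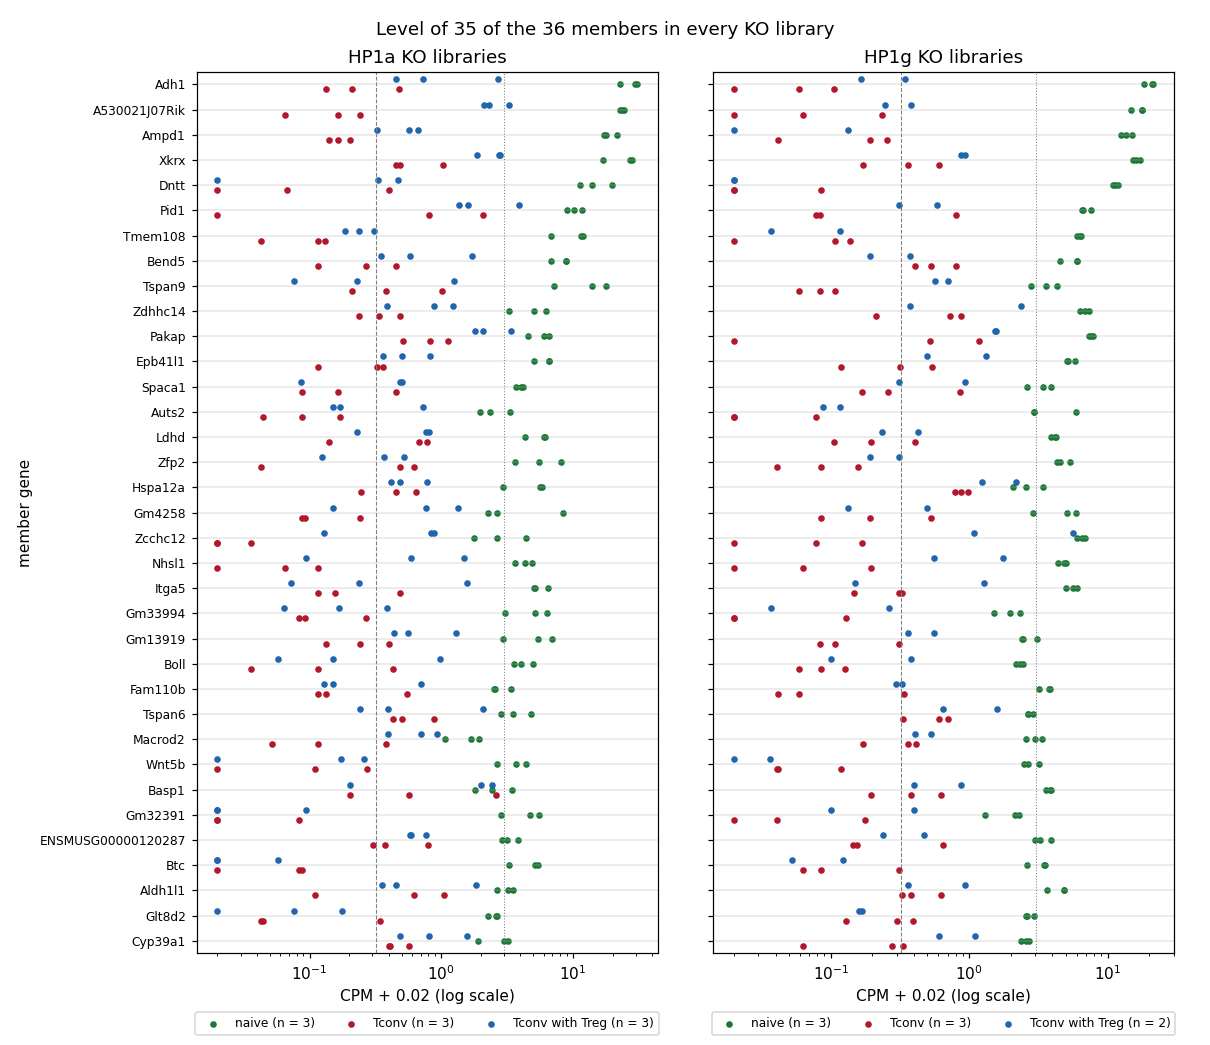
CPM plus 0.02 on a log axis (x) of 35 of the 36 members (y) in the KO libraries of the HP1a line (left) and the HP1g line (right): naive (green), Tconv (red) and Tconv with Treg (blue), with 1 point per library and dashed and dotted lines at 0.3 and 3 CPM. Naive and Tconv points are apart for every member shown except Basp1 in the HP1a line.

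Members abundant in naive cells fell the furthest in CPM, which follows from a rule that chose genes near 0 CPM in WT Tconv. Adh1 went to 0.456, 0.113 and 0.191 CPM in HP1a KO Tconv and to 0.0391, 0.0854 and 0 CPM in HP1g KO Tconv. It fell by 6.72 (SE 0.42) on the log2 scale in the HP1a line, with an adjusted p of 3.67e-05, and by 8.83 (SE 0.47) in the HP1g line, with an adjusted p of 3.59e-06. Ampd1 stood at 0.12, 0.181 and 0.143 CPM in HP1a KO Tconv and at 0.235, 0.171 and 0.0218 CPM in HP1g KO Tconv. It fell by 6.89 (SE 0.24) and by 6.53 (SE 0.49). The noncoding A530021J07Rik stood at 0.144, 0.0453 and 0.223 CPM and at 0.215, 0.0427 and 0 CPM, and fell by 7.25 (SE 0.38) and by 7.51 (SE 0.66). The lowest naive library held more than 12 CPM of each of these 3 genes and the highest Tconv library less than 0.5 CPM. Tmem108, a transmembrane protein known from neurons, stood at 6.77, 11.9 and 11.5 CPM in HP1a KO naive cells and at 0.0959, 0.0227 and 0.112 CPM in HP1a KO Tconv. Nhsl1, an actin regulator of the Nance-Horan family, went from 4.85, 4.32 and 3.6 CPM to 0.0959, 0.0453 and 0 CPM in the same cells.

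Some members ended at the counting floor. Zcchc12, a zinc-knuckle protein known as a transcriptional co-activator in BMP signalling, had 1 count over the 3 HP1a KO Tconv libraries against a naive mean of 2.93 CPM. Dntt had 3 counts over the 3 HP1g KO Tconv libraries against a naive mean of 11.3 CPM. In the HP1a KO Tconv its values were 0.048, 0 and 0.383 CPM, and it fell by 6.45 (SE 0.90) with an adjusted p of 0.00173. Auts2, a nuclear regulator linked to Polycomb complexes and to neurodevelopment, likewise had 3 counts in HP1g KO Tconv.

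The exception was Basp1, a membrane-bound scaffold that also acts as a nuclear co-repressor. It stood at 3.44, 2.40 and 1.79 CPM in HP1a KO naive libraries and at 0.552, 0.181 and 2.57 CPM in HP1a KO Tconv. Replicate 3 of the Tconv lay within the naive range, and the change of -1.12 (SE 0.84) did not pass the test (adjusted p = 0.331). Replicate 3 also held the highest Pid1 of that group, 2.04 CPM against 0.791 and 0 CPM (Pid1 encodes an adaptor that dampens insulin receptor signalling), and the highest summed member level, 16.6 CPM against 9.90 and 7.28 CPM. No other member had a mean above 1 CPM in Tconv of either KO. In HP1g KO Tconv, Basp1 was at 0.176, 0.363 and 0.611 CPM and fell by 3.28 (SE 0.44).

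The share of the naive level that remained differed among members. Relative to the naive mean of the same line and genotype, members kept a median of 4.15% in HP1a KO Tconv (0.181% for Zcchc12 to 43.3% for Basp1) and 4.39% in HP1g KO Tconv (0.192% for Dntt to 32.2% for Hspa12a, a distant member of the HSP70 chaperone family). By role, scaffolds, adaptors and chaperones kept a median of 9.03% in HP1a KO and 6.53% in HP1g KO Tconv, enzymes 6.89% and 8.08%, surface or secreted proteins 3.59% and 3.22%, and nuclear or RNA-binding proteins 3.18% and 1.58%. The ranges of the roles overlapped in both lines and no test was made.

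Genes of the wider naive programme had smaller median changes. The rule chose members for a large fall in WT cells and the markers were not so chosen, so nothing is read from this. The cut at 0.3 CPM also kept out abundant genes that fell steeply but stayed above it. Atp1b1, for example, had means of 179 and 3.09 CPM in HP1a KO naive cells and Tconv. Of 43 naive T-cell markers, 42 were tested, and 32 were called lower and 2 higher in HP1a KO Tconv, with a median change of -1.93 on the log2 scale. In HP1g KO Tconv 35 were lower and 1 was higher, with a median of -2.44. Tcf7, a factor of naive and memory T cells, had means of 2239 CPM in HP1a KO naive cells and 681 CPM in HP1a KO Tconv. No direct test between the lists was made. Of 18 activation and effector genes, 17 were called higher in each line, among them Ifng, at means of 0.172 and 263 CPM in HP1a KO naive cells and Tconv. Of 9 tested thymic emigrant markers, 3 were lower and 3 higher in the HP1a KO, and 3 were lower and 2 higher in the HP1g KO. Pecam1 and Dntt were lower and Ikzf2 and Adgrg5 higher in both.

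Beside Treg the members were still low, with higher sums than without Treg. A rule that kept genes near 0 CPM in WT Tconv without Treg favours higher levels in other conditions. The sums are therefore a description, and no test was made on them. The members' summed CPM was 27.3 ± 7.25 (SD, n = 3) in HP1a KO Tconv with Treg and 20.7 ± 7.44 (SD, n = 2) in HP1g KO Tconv with Treg. In WT cells it was 26.4 ± 7.65 and 11 ± 2.26 (SD, n = 3 each). The 3 HP1a KO libraries with Treg held 19.8, 34.3 and 27.7 CPM, all above the 7.28 to 16.6 CPM without Treg. The 2 HP1g KO libraries held 26 and 15.4 CPM, above the 7.22 to 10.7 CPM without, while the dropped library held 8.87 CPM, inside that range. Members kept a median of 10.8% of the naive level in HP1a KO and 8.91% in HP1g KO cells with Treg, and 8 and 6 members kept 20% or more.

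**Figure D3:**
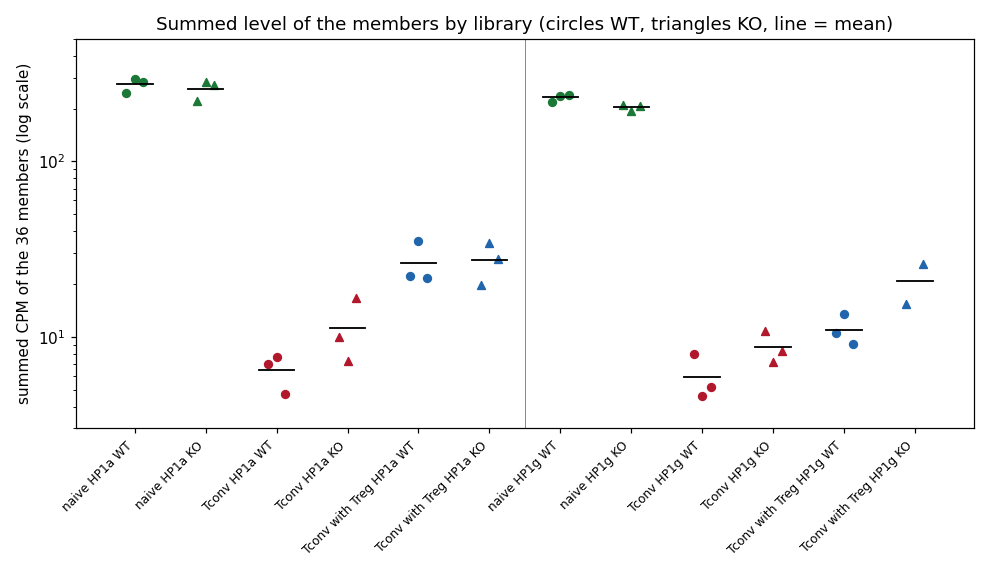
Summed CPM of the 36 members (log axis, y) in each library of the 12 groups (x); circles are WT, triangles KO, and lines are group means. Naive libraries lie between 195 and 294 CPM, and Tconv with Treg lie between 9.03 and 35.2 CPM.

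Against naive cells, most members remained lower beside Treg. In the HP1a KO, 32 of 36 were called lower, beside 5.72% of all genes tested, and in the HP1g KO 33 of 36, beside 7.34% (16.3% of genes were higher). Groups did not overlap for 35 of 36 members in each line, beside 23.4% of genes lower without overlap in the HP1a KO and 27.1% in the HP1g KO. The rule chose genes on in WT naive cells and near 0 in WT Tconv. Their naive level also carried them through the filter, so these counts are no independent support for the list. With the dropped library put back, the HP1g count was 15, and 182 of 15850 genes were called lower in place of 1249 of 17026. The median change was -3.21 and -3.50 on the log2 scale. Dntt showed no counts in either HP1g KO library with Treg and was at least 454-fold lower than the naive mean, taking 3 counts over the group as the floor. In HP1a KO cells with Treg it stood at 0, 0.313 and 0.446 CPM. Btc had 2 counts over the 3 HP1a KO libraries with Treg against a naive mean of 4.59 CPM.

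The members that did not pass against naive cells were Aldh1l1 (an enzyme of folate metabolism), Macrod2 (an ADP-ribosyl hydrolase), Tspan6 (a tetraspanin) and Basp1 in HP1a KO, and Hspa12a, Tspan6 and Zcchc12 in HP1g KO. Zcchc12 stood at 5.63 and 1.07 CPM in the HP1g KO cells with Treg, against 6.85, 6.46 and 6.00 CPM in naive cells, a change of -0.96 (SE 0.63; adjusted p = 0.286). Hspa12a stood at 2.18 and 1.21 CPM, against 2.04, 2.55 and 3.4 CPM in naive cells, a change of -0.67 (SE 0.42; adjusted p = 0.252). The groups overlapped for Hspa12a and were apart for Zcchc12. The highest members beside Treg are given next for each line. In HP1a KO cells A530021J07Rik led with a mean of 2.55 CPM, followed by Xkrx, Pakap, Pid1, Basp1 and Adh1, with means of 2.44, 2.39, 2.26, 1.52 and 1.28 CPM. In HP1g KO cells they were Zcchc12, Hspa12a, Pakap, Zdhhc14 and Nhsl1, with means of 3.35, 1.70, 1.53, 1.35 and 1.14 CPM. Several of these rested on 1 library, as Zdhhc14 stood at 2.35 and 0.356 CPM and Nhsl1 at 1.75 and 0.534 CPM in the HP1g KO.

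The direct comparison of KO Tconv with and without Treg asks which members changed with Treg. In the HP1a KO, 24 members passed the filter and 1 of them was called, A530021J07Rik, which is named here after its values were seen. It stood at 2.10, 3.26 and 2.29 CPM with Treg and at 0.144, 0.0453 and 0.223 CPM without, a rise of 4.11 (SE 0.57) on the log2 scale with an adjusted p of 0.0346, where calls were made for 0.18% of 16133 genes upward and 0.26% downward. A530021J07Rik passed the filter through its level with Treg, and a member near 0 without Treg had little room for a call downward, so these counts are no support either. Leaving out any 1 of the 6 libraries ended the call (edgeR adjusted p from 0.0671 to 0.169) and so did the replicate number as a block. The level with Treg was still 10.8% of the naive mean. DESeq2 called 4 members higher, A530021J07Rik, Xkrx, Pakap and Zcchc12, beside 231 of 29048 genes called higher and 198 lower. Xkrx stood at 1.84, 2.71 and 2.77 CPM with Treg and at 1.01, 0.431 and 0.463 CPM without, a difference of 1.90 (SE 0.44; edgeR adjusted p = 0.106).

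In the HP1g KO, 25 members passed the filter and none was called by edgeR, which called 0 of 16991 genes. At an unadjusted p under 0.05 there were 4 members and 1294 genes, and DESeq2 called 2 members, Tspan9 and Zcchc12, and 264 genes. Zcchc12 stood at 5.63 and 1.07 CPM with Treg and at 0.0587, 0.149 and 0 CPM without, a difference of 5.54 (SE 1.18) with an edgeR adjusted p of 0.503. A530021J07Rik stood at 0.360 and 0.227 CPM with Treg and at 0.215, 0.0427 and 0 CPM without.

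Over all 36 members, whether or not they passed a filter, 32 means were higher with Treg in HP1a KO and 28 in HP1g KO cells. Groups did not overlap for 8 members (22.2%) that were higher in the HP1a KO, beside 13.4% of genes tested, and for 12 (33.3%) in the HP1g KO, beside 14.4%. None and 2 (5.56%, Bend5 and Wnt5b) were lower without overlap, beside 8.83% and 10.2%. A gene near 0 has little room to go lower. Sums of some other markers also differed with Treg, but edgeR called no B-cell, neutrophil, macrophage or Treg marker in either KO. Neutrophil sums overlapped in HP1g KO cells, at 55.6 and 378 CPM with Treg and 74.5 to 250 CPM without. Macrophage sums overlapped in HP1a KO cells, at 269 to 1122 CPM with Treg and 898 to 1547 CPM without. In HP1g KO cells macrophage sums were lower, at 212 and 505 CPM with Treg and 544 to 686 CPM without. In HP1a KO cells B-cell markers summed to 79.8 to 149 CPM with Treg and 33.7 to 66.3 CPM without, and neutrophil markers to 298 to 560 CPM and 42 to 150 CPM. In HP1g KO cells B-cell markers summed to 77.4 and 135 CPM with Treg and to 30.9 to 42.6 CPM without. There 17 of the 26 had a higher mean with Treg, led by Cd83 (4.39 to 39.9 CPM), Pou2af1 (4.99 to 21.1 CPM) and Cd22 (7.36 to 22.1 CPM), while the B-cell receptor chain Cd79a had means of 0.76 CPM without and 0.56 CPM with Treg. Markers of Treg (11 genes) summed to 1063 and 1768 CPM with Treg and to 649.7 to 924 CPM without in HP1g KO cells, where 9 had a higher mean, Foxp3 among them (2.17 to 9.96 CPM). In HP1a KO cells they summed to 788 to 1147 CPM and 791 to 1039 CPM. Their part in the members' values was not tested. Of the naive T-cell markers, 2 rose (Actn1 and Dapl1) and 1 fell (Satb1) with Treg in the HP1a KO, and edgeR called 0 of 42 in the HP1g KO.

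**Figure D4:**
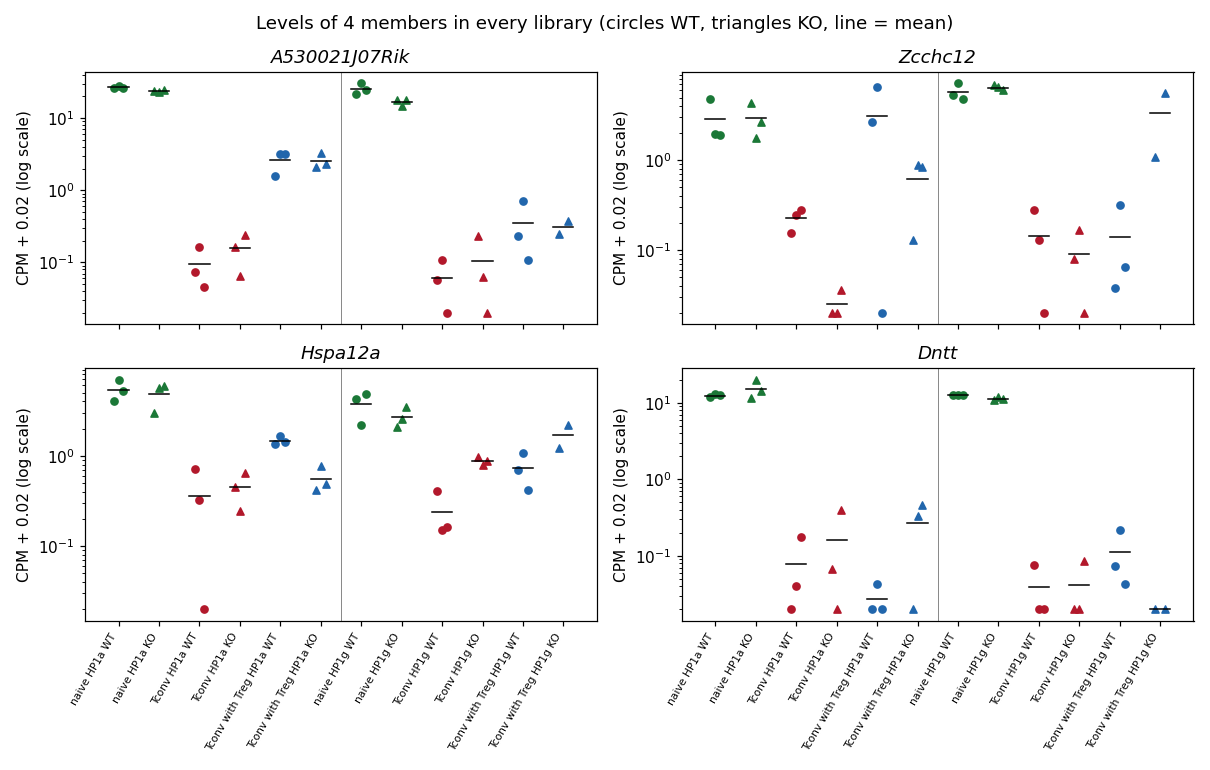
CPM plus 0.02 on a log axis (y) of A530021J07Rik, Zcchc12, Hspa12a and Dntt in each library of the 12 groups (x); circles are WT, triangles KO, lines are group means, and colours mark naive (green), Tconv (red) and Tconv with Treg (blue). A530021J07Rik lies between 1.57 and 3.26 CPM in the HP1a line with Treg and at most at 0.682 CPM in the HP1g line with Treg, and Dntt stays at or below 0.446 CPM in every grafted library.

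Among WT cells, where the Tconv level chose the members and nothing is read from a difference, 13 members were higher with Treg without overlap in the HP1a line (18.8% of naive-expressed genes) and 7 in the HP1g line (10.2%), and 1 (Btc) and 0 were lower (16% and 4.86%). A530021J07Rik stood at 1.57, 3.18 and 3.11 CPM with Treg in HP1a WT cells and at 0.682, 0.0890 and 0.211 CPM in HP1g WT cells. Zcchc12 varied most between libraries, with 2.67, 6.62 and 0 CPM in HP1a WT cells with Treg, a range that spans its naive level. The surface or secreted Btc and Wnt5b had no counts in the 3 HP1a WT libraries with Treg and were at least 150-fold and 134-fold lower than naive cells.

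Treg in the graft made the genotypes comparable on libraries the rule had not used. In the HP1a line 28 members passed the filter and edgeR called none between KO and WT cells with Treg, where 20 of 16256 genes were called (0.0431% higher and 0.08% lower). At an unadjusted p under 0.05 there were 1 member and 1975 genes, and DESeq2 called 0 members and 707 genes. The groups did not overlap for 2 members that were higher in KO, Zdhhc14 (a palmitoyltransferase) and Pakap, and 2 that were lower, Spaca1 and Hspa12a, or 5.56% each way beside 11.3% and 10.1% of genes. In the HP1g line edgeR called none of 29 members and 0 of 17177 genes. At an unadjusted p under 0.05 there were 2 members and 2028 genes, and DESeq2 called 1 member, Zcchc12, and 605 genes. Groups were apart for 12 members higher in KO (33.3% beside 18.1%) and 4 lower (11.1% beside 11.5%), with 2 KO libraries against 3.

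Hspa12a differed in opposite directions in the lines. With Treg it stood at 0.394, 0.756 and 0.465 CPM in HP1a KO against 1.35, 1.61 and 1.4 CPM in HP1a WT cells, and at 2.18 and 1.21 CPM in HP1g KO against 1.06, 0.401 and 0.668 CPM in HP1g WT cells. KO and WT libraries did not overlap in either line. The difference between the lines' KO effects, HP1g minus HP1a, was 2.67 (SE 0.75) in log2 units. It did not pass in edgeR (adjusted p = 0.0863), while DESeq2 called it (adjusted p = 0.00633). None of 34 members tested passed for this difference in edgeR, beside 1.78% of genes called higher and 0.948% lower. At an unadjusted p under 0.05 there were 4 members and 3351 of 18573 genes, and DESeq2 called 1 member and 1447 genes.

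Genotype comparisons in naive and in Tconv cells without Treg used libraries that chose the members and are a description. In naive cells, 5 members were lower in HP1a KO without overlap (3.64% of naive-expressed genes) and none was higher (1.9%). In the HP1g line 10 were lower (12.1%) and 4 higher (9.52%). A530021J07Rik and Spaca1 were lower in KO in both lines. Auts2 stood at 3.30, 1.97 and 2.32 CPM in HP1a KO against 8.50, 7.18 and 4.76 CPM in HP1a WT naive cells. In Tconv, 5 members were higher in HP1a KO (9.91%) and 1 was lower (5.7%), and in the HP1g line 1 was higher (8.18%), Hspa12a, and none was lower (4.23%). Hspa12a stood at 0.958, 0.768 and 0.850 CPM in HP1g KO Tconv against 0.393, 0.130 and 0.142 CPM in WT.

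Naive libraries differed among themselves in some members by replicate number. In the HP1a line Gm4258 stood at 8.49 and 8.43 CPM in replicate 1 of WT and KO and at 2.26 to 3.64 CPM in the others. Tspan9, a tetraspanin, stood at 6.68 and 7.14 CPM in replicate 1 and at 12.6 to 17.8 CPM in the others. In the HP1g line Tspan9 was lower, at 2.35 to 5.71 CPM. Any cause was not tested.

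The thresholds of the rule cut through a continuous range. Near the naive threshold on its inside were Cyp39a1 (an oxysterol hydroxylase) and Glt8d2 at 3.002 and 3.15 CPM, and nearest outside were Art3, Vwce and Ptprf at 2.81, 2.71 and 2.66 CPM. Nearest inside the Tconv threshold were Macrod2, Pakap and Fam110b at 0.294, 0.292 and 0.289 CPM, and nearest outside were Dapk1, Zbtb10 and Cnksr3 at 0.319, 0.322 and 0.356 CPM. A further 74 genes had 3 CPM or more in WT naive cells and more than 0.3 but at most 1 CPM in WT Tconv.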

How the data were processed

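The authors trimmed the reads, aligned them with STAR to GRCm39 and quantified genes with Salmon, and they deposited 1 table of estimated counts per gene for 36 libraries made with SMART-Seq, which does not mark strand. Replicate 3 of the Tconv with Treg of the HP1g KO was dropped, as in the study, for its GC content, exonic share and 5′ to 3′ bias. Members were found on CPM from the deposited estimated counts. Counts were then rounded for edgeR 4.0.16 in R 4.3.3 (TMM, filterByExpr, robust quasi-likelihood fit, Benjamini-Hochberg adjustment over all genes tested). Calls needed an adjusted p under 0.05 and an absolute log2 fold change above 1. The comparisons share groups: Tconv with and without Treg are each set against the same naive cells. DESeq2 1.42.0, the study's tool, RLE scaling, no filter, no fold threshold, all libraries in 1 fit, a replicate block and leaving out each library were alternatives. Totals ran from 37029519 to 63042245 counts. No pair of replicates agreed within sampling noise. The tests were checked on simulated data, with changes set only in genes of higher counts and a fixed spread between replicates. That check does not cover members at low counts in grafted cells.

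The members, gene lists and tests were chosen with earlier results of these data known. Named are members in a marker list, the 15 highest in KO naive cells, the 5 largest called rises and falls per comparison among members whose groups do not overlap, the 5 highest per group with Treg, and the 3 genes nearest each threshold on either side; predicted genes are otherwise counted only, and other names were added after their values were seen. The values of 1 member and of 1 naive T-cell marker are not reported singly here, though both stay in the counts. Promoters are the 250 bases before the GENCODE vM39 canonical start. Lists reported are naive T-cell, thymic emigrant, activation, B-cell, macrophage, neutrophil, Treg and defining T-cell genes.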

Additional observations from a re-analysis of the deposited data

Results flagged for a closer look

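Hspa12a differed between KO and WT cells with Treg in opposite directions in the HP1a and HP1g lines, and every KO library lay on its own side of the WT libraries in both. The difference between the lines was 2.67 on the log2 scale, from -1.45 in the HP1a line and 1.23 in the HP1g line, and it did not pass in edgeR over all genes tested (adjusted p = 0.0863).

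The library left out of the comparisons, replicate 3 of the HP1g KO Tconv with Treg, held signal of 2 members above that of the HP1g WT libraries with Treg. Ldhd, a mitochondrial D-lactate dehydrogenase, stood at 3.46 CPM there, against at most 0.518 CPM in the WT and 0.404 CPM in the other KO libraries. Hspa12a stood at 1.24 CPM, against at most 1.06 CPM in WT and 2.18 CPM in the other KO libraries. The library had been dropped for poor quality. Exons of Ldhd overlap those of Znrf1 on the opposite strand, so reads counted for Ldhd cannot be assigned with certainty.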

How the results depend on the processing

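The rule gave 14 members with 5 CPM or more in WT naive cells and 12 with 0.1 CPM or less in WT Tconv, and 31 to 42 when 1 WT library was left out. On WT libraries of the HP1a line alone it gave 52 members, of which 30 were shared with the list used here. On those of the HP1g line alone it gave 32, of which 27 were shared. With TMM-scaled CPM it gave 32, all shared. Counts of members lower than in naive cells stayed within 1.5 times of the reported value under every alternative run but 1. Putting back the left-out library gave 15 in the HP1g KO with Treg, where 182 genes were called lower in place of 1249. With 1 library left out, they were 32 to 36 and 34 to 36 in HP1a and HP1g KO Tconv, and 25 to 34 and 29 to 36 with Treg. For the Treg effect, the HP1a KO count of 1 was 4 with DESeq2, 2 with no filter (A530021J07Rik and Zcchc12), 0 with the replicate block and 0 to 0 with 1 library left out. In the HP1g KO it was 2 with DESeq2 in place of 0. Between KO and WT with Treg in the HP1g line it was 1 with DESeq2 and 1 with all libraries of the line in 1 fit, Zcchc12 in both. The difference between the lines called 1 member with DESeq2 (Hspa12a), 3 with all libraries in 1 fit (Zcchc12, Dntt and Wnt5b), and 0 to 1 with 1 library left out: Pakap without replicate 2 and Zcchc12 without replicate 3 of the HP1a WT cells with Treg. Over all genes, DESeq2 called 429 and 264 for the Treg effect in the HP1a and HP1g KO, and no filter called 126 in the HP1a KO. Between genotypes with Treg in the HP1g line, DESeq2 called 605 genes and all libraries of the line in 1 fit 307. For the difference between the lines these were 1447 and 1650 genes. The causes were not tested. Leaving out a library that leaves 1 in a group assumes that it varies like the other groups.

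In no tested comparison with 3 pairs did the deviations of same-numbered libraries correlate above 0.1 in every pair (0.0388, 0.282 and 0.308 for the Treg effect in the HP1a KO), so they were taken to share only a number. As a hint from the data, each of the 6 libraries correlated best with its own number between HP1a KO Tconv and naive cells, and 5 of 6 did for the Treg effect in the HP1a KO. Between WT and KO naive cells of the HP1a line, compared without a test, the 3 pairs lay between 0.261 and 0.620. With only 2 pairs, the values were 0.185 and 0.104 for the Treg effect and 0.362 and 0.189 between genotypes with Treg in the HP1g line, where the block gave 0 and 30 called genes in place of 0 and 0, none of them a member. With the replicate block, 34, 35, 31 and 32 members were lower than in naive cells in place of 35, 36, 32 and 33. At 0.0476 to 0.081 CPM for 3 counts, changes among members in grafted cells rest on few reads, and differences below that level were not detectable.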
